A study of Mus musculus with 4 samples.

Results

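The 8 genes described here, Tyr, Tyrp1, Dct, Mlana, Mitf, Sox10, Gpr143 and Slc45a2, are marker genes of melanocytes, the pigment cells of skin, and were measured in cultures labelled as mouse keratinocytes. They were chosen by symbol, as every non-control probe whose gene name in the array files was 1 of these symbols. All 8 were found, with 11 of the 39426 probes, among 30340 genes or targets on the array. Cells were taken from whole skin of newborn C57BL/6 mice with 0.05% collagenase A, cultured for 3 days and then kept for 48 h with or without 1 mM CaCl2. Added calcium is the usual signal that makes cultured keratinocytes leave the cell cycle and differentiate. The groups were Pla2g2f-/- cells with calcium, Pla2g2f-/- cells without, Pla2g2f+/+ cells with calcium and Pla2g2f+/+ cells without, each measured on 1 one-colour array. Pla2g2f is a gene for a secreted phospholipase, which cuts fatty acids from phospholipids, and the series concerns how its loss affects keratinocyte differentiation and activation. RNA was pooled from 6 mice of each genotype, so the effects of genotype and of the cell preparation cannot be told apart, and with 1 array per group no difference below has a replicate check, a test or a p-value.

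Melanocytes arise from the neural crest, settle in the basal epidermis and the hair follicle, and pass melanin to neighbouring keratinocytes in organelles called melanosomes. Mitf is the central transcription factor of the lineage, and Sox10, a neural crest transcription factor, acts upstream of it. Tyrosinase (Tyr) carries out the rate-limiting step of melanin synthesis, and the related enzymes Dct and Tyrp1 act further along the pathway to eumelanin. Mlana, Gpr143 and Slc45a2 encode membrane proteins of the melanosome and its precursors. Mitf binds E-box sequences, among them the longer M-box GTCATGTGCT found upstream of tyrosinase family genes, and the CRE sequence TGACGTCA in the melanocyte promoter of Mitf responds to cAMP signalling.

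The promoters of the 3 melanin enzymes are shown because each holds GTCATGTGCT, the M-box letters used here. The M-box is the element through which Mitf is known to act on them. These letters were read from the windows as the longest stretch around CATGTG that all 3 share, so that they hold them follows from how they were read. Each line gives the 250 bases before the RefSeq gene start (GRCm38.p6), read 5′ to 3′ on the gene's strand, with the motif in capitals.
Tyr, chr7:87493513-87493762, minus strand: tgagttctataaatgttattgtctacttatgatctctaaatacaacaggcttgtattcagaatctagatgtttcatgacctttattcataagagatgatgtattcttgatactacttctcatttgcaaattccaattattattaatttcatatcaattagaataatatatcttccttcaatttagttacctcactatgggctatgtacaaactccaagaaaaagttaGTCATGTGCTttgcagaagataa
Tyrp1, chr4:80833963-80834212, plus strand: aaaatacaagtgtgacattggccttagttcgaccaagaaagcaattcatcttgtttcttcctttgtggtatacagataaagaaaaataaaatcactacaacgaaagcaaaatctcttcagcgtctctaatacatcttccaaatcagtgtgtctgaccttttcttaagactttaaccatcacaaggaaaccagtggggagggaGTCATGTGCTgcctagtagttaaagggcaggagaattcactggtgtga
Dct, chr14:118052247-118052496, minus strand: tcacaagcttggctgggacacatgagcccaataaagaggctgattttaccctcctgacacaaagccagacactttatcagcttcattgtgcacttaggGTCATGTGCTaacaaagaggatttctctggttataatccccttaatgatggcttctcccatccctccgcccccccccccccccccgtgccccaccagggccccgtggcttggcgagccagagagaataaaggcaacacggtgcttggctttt
The first base of the M-box lay at position -23 in Tyr, -48 in Tyrp1 and -152 in Dct, where position -1 is the base before the start. Searched on both strands, GTCATGTGCT was present in 0.186% of all 32851 promoter windows of 300 bases in the RefSeq table, whereas its inner 6 bases, CATGTG, were present in 14.2%. Among 64 genes of the pathway lists used below, 49 had an entry and 3 held the M-box, namely the enzymes shown. A match of letters is a description and not evidence of binding.

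The promoter of the regulator itself is shown for its CRE.
Mitf, chr6:97991533-97991782, plus strand: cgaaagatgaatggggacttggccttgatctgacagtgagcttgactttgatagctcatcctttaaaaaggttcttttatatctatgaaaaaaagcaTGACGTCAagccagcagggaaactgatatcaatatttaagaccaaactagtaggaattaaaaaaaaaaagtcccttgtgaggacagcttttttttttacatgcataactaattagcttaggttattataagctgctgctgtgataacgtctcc
The CRE began at position -153 in this window, 1 of 3 listed for Mitf, and it was in neither of the others. TGACGTCA occurred in 1.79% of all windows. Promoter entries were found for 4 of the 8 members.

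The array reads each gene through 60-base probes. The Tyr probe used for the values below is shown because a dimmer Tyr probe elsewhere in the transcript gave other differences. It starts at base 954 of NM_011661 and lies at chr7:94632414-94632473 on the minus strand (mm9).
Tyr probe: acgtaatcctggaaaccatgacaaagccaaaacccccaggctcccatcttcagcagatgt

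Levels are given as the relative signal, the processed spot signal divided by the 75th percentile of its array, and differences as log2 of the ratio of relative signals. For each gene the brightest of its probes was used, and since probes differ in how strongly they bind, levels of different genes are not compared. The 75th percentile was 3299 intensity units for −/− cells with calcium, 2889 for −/− cells without, 2737 for +/+ cells with calcium and 2638 for +/+ cells without. Between 67.0% and 68.6% of probes were well above background, and 0 spots were saturated. The scanner software assigns each spot an error, which came to about 0.20 log2 for a difference between arrays at these signals and covers the reading of a spot only. For bright spots it is in effect a fixed 10% of the signal. Exceeding it is therefore a preset cut and not a comparison with measured noise. The median SD over repeat spots within an array was 0.055 to 0.059 log2. The Pla2g2f probe read 0.0866 and 0.0729 in −/− cells with and without calcium, against 0.122 and 0.0982 in +/+ cells. The labels do not say which part of the gene was deleted, so this probe checks nothing about the genotype.

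Signals of all 8 pigment genes were well above background on every array. Markers of the labelled cell type were present too, with 7 of 7 basal keratinocyte genes well above background throughout. In RNA from whole cultures, fewer cells of a type and less RNA per cell cannot be told apart.

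**Figure D1:**
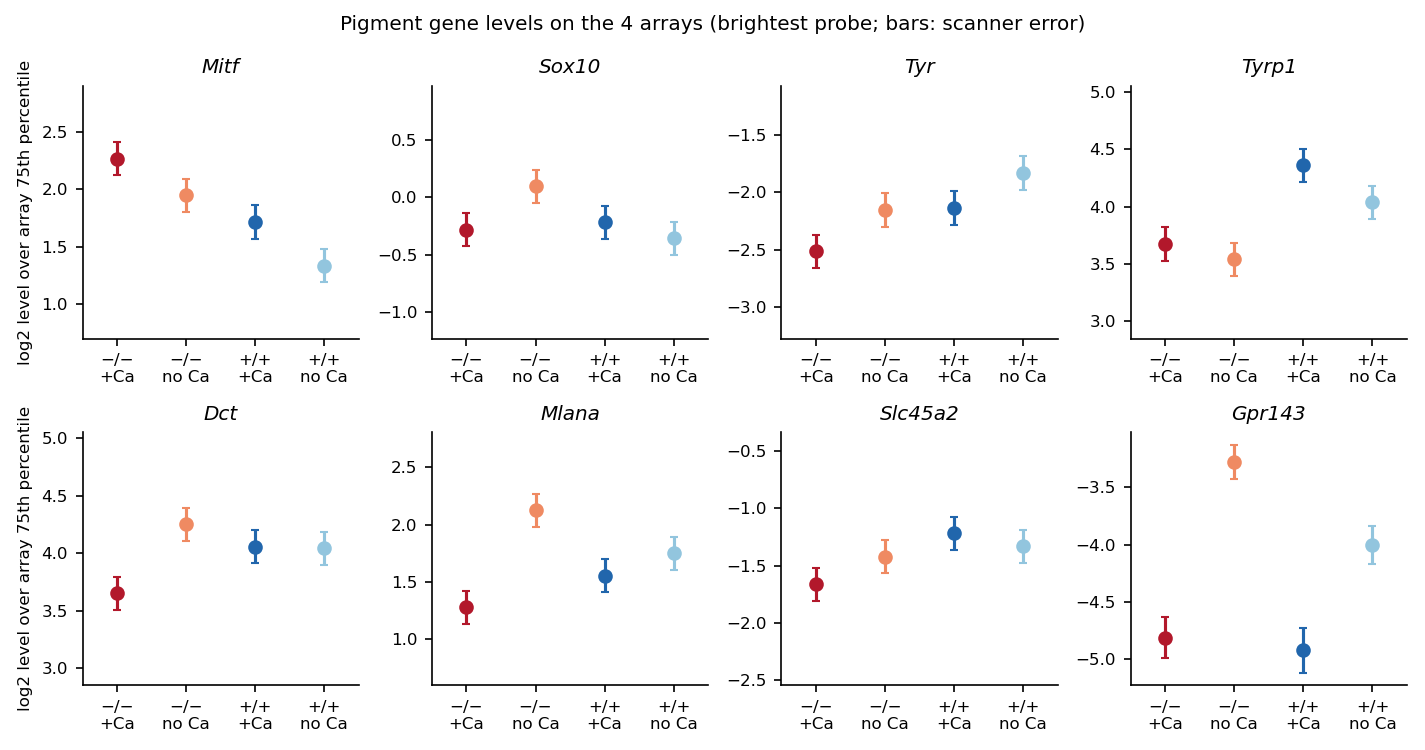
Log2 relative signal of each pigment gene (y axis, each panel spanning the same range) on the 4 arrays (x axis), with bars for the scanner's error of the spot. Mitf was highest on the −/− array with calcium and Tyrp1 on the +/+ array with calcium, whereas Dct, Mlana, Sox10 and Gpr143 were highest on the −/− array without calcium.

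Mitf had a relative signal of 4.81 in −/− cells with calcium and 3.86 without, against 3.29 and 2.53 in +/+ cells with and without calcium. Both −/− arrays therefore stood above both +/+ arrays, and each step in this order exceeded the scanner's error. A separate Mitf probe, which starts at base 2038 of NM_001113198 rather than base 4766, read 1.13 and 0.966 in −/− cells with and without calcium, against 0.763 and 0.548 in +/+ cells. The order of the arrays was the same for both probes. Which of the listed Mitf promoters these transcripts came from was not determined.

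Sox10 read 0.821 in −/− cells with calcium and 1.07 without, against 0.860 and 0.780 in +/+ cells with and without calcium. The −/− array without calcium stood above the others by 0.31 log2 or more, and the remaining arrays differed from their neighbours by less than the scanner's error.

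Tyr read 0.175 in −/− cells with calcium and 0.224 without, against 0.227 and 0.281 in +/+ cells with and without calcium. The +/+ array without calcium was highest, the −/− array with calcium was lowest, and the arrays between them differed by 0.02 log2, less than the scanner's error. Tyrp1, an enzyme and stabiliser of the eumelanin pathway, read 12.8 and 11.7 in −/− cells with and without calcium, against 20.5 and 16.4 in +/+ cells. Here both −/− arrays lay below both +/+ arrays, and the −/− arrays differed from each other by less than the scanner's error.

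Dct, which converts dopachrome to DHICA, read 12.6 and 19.1 in −/− cells with and without calcium, against 16.6 and 16.5 in +/+ cells. The −/− array with calcium stood apart at the low end, 0.39 log2 below its neighbour, and the other arrays differed from their neighbours by less than the scanner's error. A further Dct probe, overlapping the first by 44 bases and so not independent of it, read 6.58 and 10.4 in −/− cells with and without calcium, against 8.79 and 8.35 in +/+ cells.

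Mlana, a melanosomal membrane protein known as a melanoma antigen, read 2.43 and 4.37 in −/− cells with and without calcium, against 2.94 and 3.37 in +/+ cells. The −/− arrays marked both ends of the order, each separated from the +/+ arrays by more than the scanner's error. Slc45a2, a transporter that supports melanosome pH, read 0.316 and 0.373 in −/− cells with and without calcium, against 0.430 and 0.398 in +/+ cells. Only the −/− array with calcium was separated from its neighbour in the order by more than the scanner's error.

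Gpr143, the receptor altered in ocular albinism, read 0.0356 in −/− cells with calcium and 0.103 without, against 0.0330 and 0.0624 in +/+ cells with and without calcium. Both arrays with calcium lay below both without, and those with calcium differed by less than the scanner's error.

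The first comparison asked how −/− cells differed from +/+ cells when no calcium was added. Mitf and Sox10, the regulators, were higher in −/− cells by 0.61 and 0.46 log2, and Gpr143, Mlana and Dct by 0.72, 0.37 and 0.21. Tyr and Tyrp1 were lower, with differences of −0.32 and −0.50, and Slc45a2 differed by −0.09, less than its scanner error. None of the 8 members reached 2-fold in either direction, against 4.65% of 21345 genes that were at least 2-fold higher and 4.32% that were at least 2-fold lower. The median of the members was 0.29, beside −0.18 for all genes. Relative to the median gene, 6 of 8 members were higher in −/− cells and Tyr and Tyrp1 were lower, at −0.15 and −0.32. Under scaling to basal keratinocyte genes, added after the data were seen, Slc45a2 turned to 0.17 or 0.34 and Tyr to −0.06 or 0.10, depending on whether their median or mean level was used.

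With calcium, the genotype difference of Dct and Mlana had another sign than without, and that of Sox10 too, though within its scanner error. The Dct difference without calcium was only just past its scanner error (0.208 against 0.204). Mitf was still higher in −/− cells, by 0.55 log2, and Tyrp1 and Tyr were still lower, at −0.69 and −0.38, Tyr by its brighter probe only. Dct, Mlana and Slc45a2 were lower in −/− cells, at −0.40, −0.28 and −0.44, while Sox10 at −0.07 and Gpr143 at 0.11 differed by less than their scanner error, and Gpr143 was −0.10 after normexp background correction. Again none of the 8 reached 2-fold, against 6.55% of 21563 genes higher and 3.05% lower. The member median was −0.33, beside −0.16 for all genes, and it turned to 0.23 or 0.21 under scaling to the median or mean of the basal keratinocyte genes. Under both of these scalings the members other than Tyrp1 were above 0. Relative to the median gene, which such scaling does not affect, Mitf, Gpr143 and Sox10 were higher in −/− cells, by 0.71, 0.27 and 0.09, and the other 5 members lower.

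**Figure D2:**
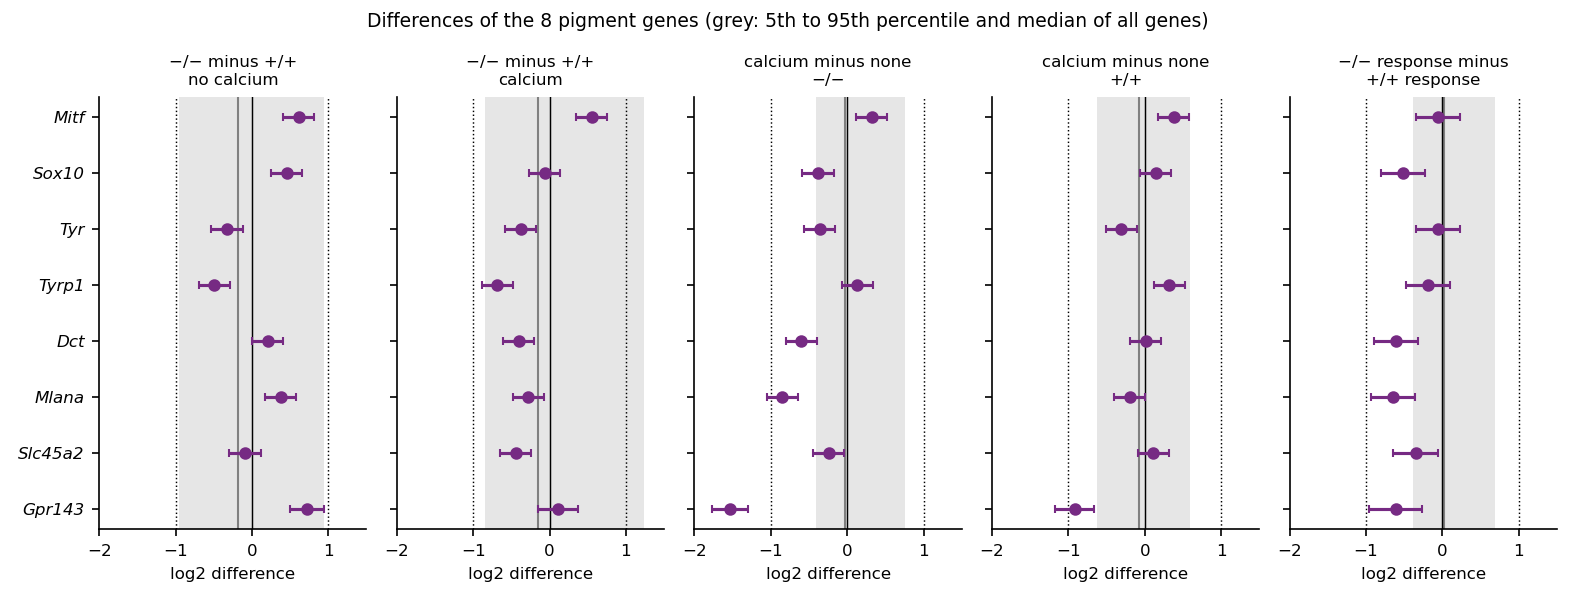
Log2 difference of each pigment gene (x axis, bars: scanner error) in the genotype differences without and with calcium, both calcium responses (−/− and +/+ cells) and the −/− response minus the +/+ response. Grey bands span the 5th to 95th percentile of all genes with their median as a grey line, and dotted lines mark 2-fold. Gpr143 in the −/− calcium response was the member past 2-fold, and all 8 members lay below 0 in the last panel, where averaging the probes of a gene put 1 (Tyr) above 0 and scaling to basal keratinocyte genes put 3 (median level) or 2 (mean level) above 0.

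The calcium response of −/− cells was a lower signal for most members. Gpr143 was 2.89-fold lower with calcium (−1.53 log2), Mlana was lower at −0.85 log2 and Dct 1.52-fold lower (−0.60). Sox10, Tyr and Slc45a2 were lower by smaller amounts, with differences of −0.38, −0.36 and −0.24. Mitf was higher with calcium, by 0.32, and Tyrp1 differed by 0.13, less than its scanner error. Of the 8 members, 1 was at least 2-fold lower and 0 at least 2-fold higher, against 0.602% and 2.99% of 21427 genes. The member median was −0.37, beside −0.03 for all genes, and it turned to 0.27 or 0.18 under scaling to the median or mean of the basal keratinocyte genes. That scale itself moved with calcium. Of the 7 basal genes, 7 were lower with calcium in −/− cells (median −0.55) and 5 in +/+ cells (median −0.30). On the median or mean level, Sox10 turned to 0.26 or 0.17, Tyr to 0.28 or 0.19, Slc45a2 to 0.41 or 0.31 and Dct to 0.04 or −0.05. Those scalings also changed the Gpr143 difference to −0.89 or −0.98, and normexp background correction gave −1.11. Relative to the median gene, 6 of 8 members were lower with calcium.

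In +/+ cells the calcium response was smaller for most members. Gpr143 was 1.89-fold lower with calcium (−0.92 log2), and Tyr was lower at −0.31. Mitf and Tyrp1 were higher with calcium, by 0.38 and 0.32. Dct at 0.01, Mlana at −0.20, Sox10 at 0.14 and Slc45a2 at 0.11 differed by less than their scanner error. None of the 8 reached 2-fold, against 2.47% of 21127 genes higher and 1.01% lower, and the member median was 0.06, beside −0.07 for all genes. Relative to the median gene, 5 of 8 members were higher with calcium. Basal keratinocyte scaling on the median or mean level turned Tyr to 0.04 or 0.14 and Mlana to 0.14 or 0.24.

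The calcium responses of the genotypes were then set against each other. The −/− response minus the +/+ response was below 0 for all 8 members, with −0.65 for Mlana, −0.61 for both Dct and Gpr143, −0.52 for Sox10 and −0.35 for Slc45a2. Those 5 differences exceeded the scanner error of about 0.29, whereas Tyrp1 at −0.19 and Mitf and Tyr at −0.06 each did not. The share of all genes past their own scanner error was not counted. Among 19225 genes measured well above background on every array, 47.0% were below 0, 0.629% were at least 2-fold lower and 1.91% at least 2-fold higher, and no member reached 2-fold. The member median was −0.44, beside 0.02 for all genes, and the members lay between the 1.93rd and the 37.0th percentile of all genes. With the brightest probes all 8 members were below the median gene, which a constant scaling of each array cannot alter, but averaging the probes of a gene put Tyr above it, at 0.17 beside 0.03, and left 7 of 8 below 0. Signs against 0 also depended on the scaling, since Tyr, Tyrp1 and Mitf turned positive (0.25, 0.11 and 0.24) under scaling to the median level of the basal keratinocyte genes, and Tyr and Mitf (0.06 and 0.05) under scaling to their mean level. This difference uses the same 4 arrays as the comparisons above and is not a further observation of them.

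**Figure D3:**
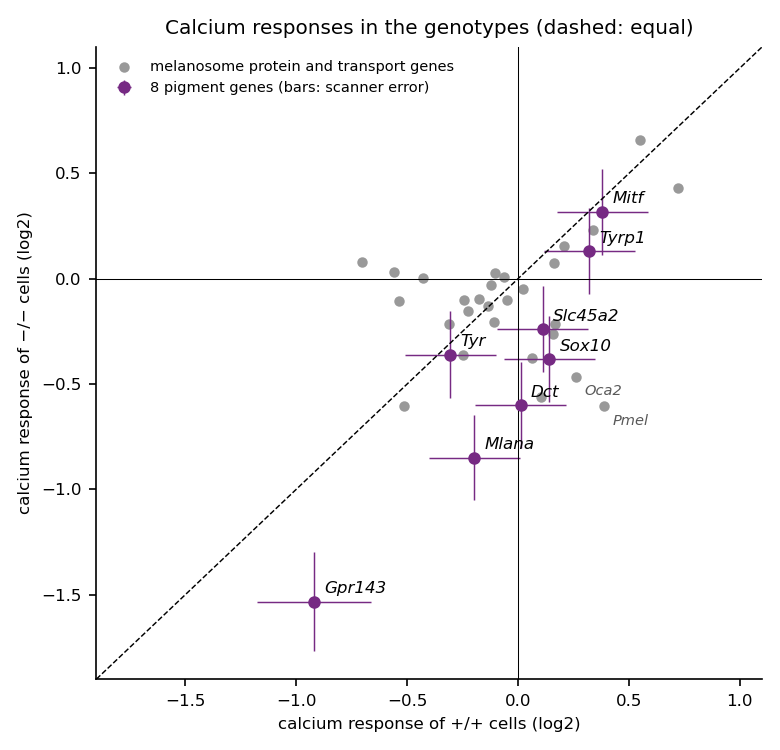
Log2 calcium response in −/− cells (y axis) against that in +/+ cells (x axis) for the 8 pigment genes (purple, bars: scanner error) and the melanosome protein and transport genes (grey). The purple points lie on or below the dashed line of equal response, with Mlana, Dct, Gpr143, Sox10 and Slc45a2 below it by more than the scanner error, and scaling to basal keratinocyte genes put Tyr and Mitf above it (on the median level Tyrp1 too), as averaging probes did for Tyr.

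The dimmer Tyr probe was spotted 10 times and starts at base 2897 of NM_011661 (chr7:94576265-94576324, minus strand, mm9). After outlier spots were dropped, 8 of 9 spots were well above background in −/− cells with calcium, 9 of 9 in −/− cells without, 5 of 10 in +/+ cells with calcium and 9 of 9 in +/+ cells without. Mean relative signals over the spots, on the log scale, were 0.0174 and 0.0169 in −/− cells with and without calcium, against 0.0181 and 0.0231 in +/+ cells. The SD over spots was 0.20, 0.24, 0.36 and 0.23 log2 in the same order of arrays, and spots of all 4 arrays overlapped in range. The genotype difference without calcium was −0.45 by this probe and −0.32 by the brighter one. With calcium the brighter probe gave −0.38, whereas this probe gave 0, a bound because its +/+ signal was not well above background. The calcium response of −/− cells was 0.04 by this probe, where the brighter one gave −0.36. Its signal in +/+ cells with calcium was not well above background as a whole, so no difference of responses is given for it alone. The alternative that averages both probes uses its measured signal there all the same, and put the Tyr difference of responses at 0.17.

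**Figure D4:**
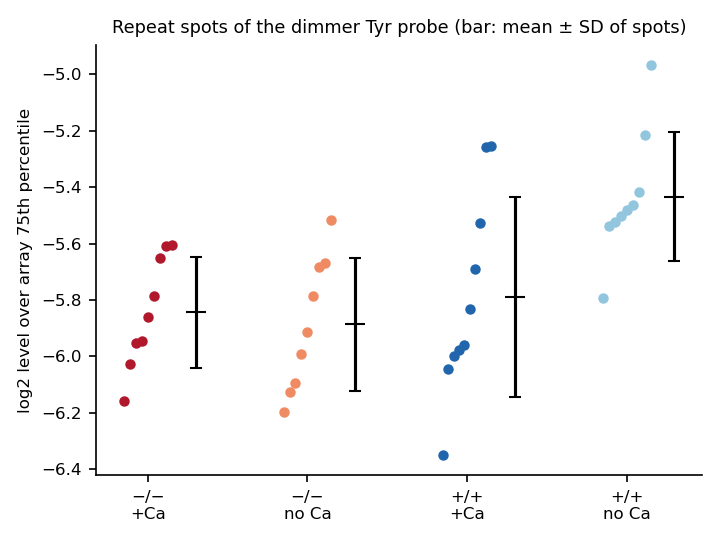
Log2 relative signal (y axis) of each repeat spot of the dimmer Tyr probe on the 4 arrays (x axis), sorted by value, with the mean and SD over spots of 1 array as a bar. The spots of the +/+ array without calcium have the highest mean, and the ranges of all 4 arrays overlap.

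The rest of the melanosome machinery did not share a common direction. Among 23 other melanosome proteins, medians were −0.03 without and −0.18 with calcium for −/− against +/+ cells, and −0.10 and −0.06 for the calcium responses of −/− and +/+ cells. Pmel, which builds the fibrils of the melanosome, read 3.04 and 4.63 in −/− cells with and without calcium, against 3.92 and 3.00 in +/+ cells. Oca2, a melanosomal chloride channel, read 0.170 and 0.235 in −/− cells with and without calcium, against 0.176 and 0.147 in +/+ cells. For both, the −/− array without calcium was highest, as for Mlana, Sox10, Gpr143 and, within the scanner's error, Dct. The list was divided in this respect. Gpnmb and Cd63 were also highest there, whereas Rab38, Slc7a11 and Ap3b1 were highest in +/+ cells with calcium and Tpcn2 in +/+ cells without. The share of the list or of all genes with this order was not counted.

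A pair of melanosome proteins passed 2-fold in the genotype differences. Tpcn2, a cation channel of the organelle, was 2.02-fold lower in −/− cells without calcium (−1.02 log2, scanner error 0.30). It read 0.0181 in −/− cells and 0.0367 in +/+ cells there, near background, so the 2-fold threshold lies within that error. Gpnmb, a glycoprotein that macrophages also make, read 14.0 and 15.1 in −/− cells with and without calcium, against 5.37 and 7.78 in +/+ cells, and was 2.61-fold higher in −/− cells with calcium. No melanosome protein reached 2-fold in either calcium response. Of 6 melanosome transport genes, Myrip was not well above background on any array, and none of the other 5, which include the motor Myo5a and its adaptor Mlph, reached 2-fold. Their medians were 0.13 without and 0.05 with calcium between genotypes, and 0.00 and −0.31 for the calcium responses of −/− and +/+ cells.

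Among 16 lineage regulators and receptors, 1 was past 2-fold between genotypes and 0 in the calcium responses. Kit, the receptor for stem cell factor on melanocytes and mast cells, read 0.842 and 1.03 in −/− cells with and without calcium, against 0.308 and 0.349 in +/+ cells. It was 2.73-fold higher in −/− cells with calcium and 2.94-fold without. Mc1r, the melanocortin receptor, read 0.128 and 0.164 in −/− cells with and without calcium, against 0.224 and 0.251 in +/+ cells, with genotype differences of −0.80 and −0.61. Pax3, which acts with Sox10 on Mitf, differed by −0.76 and −0.40. The list medians were −0.01 with and 0.00 without calcium between genotypes, and −0.09 and −0.16 for the calcium responses of −/− and +/+ cells.

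Signals that keratinocytes send to melanocytes included some of the larger differences. Edn1, an endothelin that stimulates melanocytes, read 0.939 and 0.736 in −/− cells with and without calcium, against 2.32 and 0.399 in +/+ cells. Its calcium response was thus 1.28-fold in −/− cells and 5.83-fold in +/+ cells, both higher with calcium. Kitl, the ligand of Kit, differed between genotypes by 0.04 log2 with and 0.34 without calcium. Pomc, the precursor of melanocortins, differed by −0.76 and −0.56. Nrg1, a ligand of ERBB receptors, was 2.86-fold lower in −/− cells with calcium and 2.69-fold lower without. Foxn1, a transcription factor by which mouse keratinocytes attract pigment, was 3.99-fold lower in −/− cells with calcium. F2rl1, a receptor involved in melanosome uptake, was 2.69-fold and 2.23-fold higher with calcium in −/− and +/+ cells. Without calcium 1 of 9 compared genes of this list was at least 2-fold higher and 2 were lower between genotypes, against 4.65% and 4.32% of all genes. The higher gene was Edn3, a bound because its +/+ signal was not well above background, and the lower genes were Nrg1 and Hgf, the latter near background. With calcium 0 of 8 were higher and 3 lower, against 6.55% and 3.05% of all genes. In the calcium response 3 of 9 were higher and 1 lower in −/− cells, against 2.99% and 0.602% of all genes. Of these, the lower gene (Edn3) and Foxn1 among the higher were bounds. In +/+ cells 3 of 8 were higher and 0 lower, against 2.47% and 1.01% of all genes. Fgf2, Dkk1, Csf2 and Wnt3a were not well above background on any array, and Asip was not found by its symbol.

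A further list of 12 genes reported in melanocytes, of which Bcan was not well above background anywhere, had 4 of 11 genes past 2-fold in −/− cells, all higher, both with and without calcium. Among them were Cdh19, S100b and Ptgds, which glial cells of the nerve also express. Ptgds, a prostaglandin D synthase, read 0.518 and 1.83 in −/− cells with and without calcium, against 0.216 and 0.503 in +/+ cells. It was 3.53-fold and 2.33-fold lower with calcium in −/− and +/+ cells. Tspan10 was also over 2-fold lower with calcium in −/− cells (−1.05 log2), and Cdh19 in +/+ cells (−1.02).

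Markers of other cells that express some of these genes moved with genotype. Mitf, Kit and Gpnmb are also expressed by mast cells or macrophages. Of 9 mast cell markers, Ms4a2 was not well above background on any array and the other 8 were at least 2-fold higher in −/− cells in both conditions, with medians of 3.85 log2 with and 3.22 without calcium. Their summed relative signal, in which brighter probes weigh more, was 10.8 and 10.7 in −/− cells with and without calcium, against 1.40 and 1.20 in +/+ cells. All 9 macrophage markers were at least 2-fold higher in −/− cells, with medians of 3.94 with and 2.29 without calcium and sums of 33.3 and 19.9, against 3.28 and 4.07 in +/+ cells. The part of these cells in the Mitf, Kit and Gpnmb differences was not tested.

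Schwann cells, which share Sox10 with melanocytes, had 10 markers on the array, with medians of 0.00 with and −0.02 without calcium between genotypes. At least 2-fold higher in −/− cells were 2 of these with calcium and 3 without, and 1 was lower in each condition. Their sums were 17.9 and 16.1 in −/− cells with and without calcium, against 14.5 and 13.2 in +/+ cells, and their part in the Sox10 values was not tested. Fibroblast markers had medians of 1.03 with and 0.56 without calcium, and adipocyte markers of 3.15 and 2.95. Hair follicle markers, from the structure that houses many melanocytes, had medians of 0.00 and −0.16 over 5 of 8 genes, with Krt75, Krt25 and Shh not well above background on any array. The basal keratinocyte genes were lower in −/− cells for 7 of 7 in each condition, with medians of −0.56 with and −0.32 without calcium, and their sums were 230 and 287 in −/− cells with and without calcium, against 337 and 358 in +/+ cells.

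**Figure D5:**
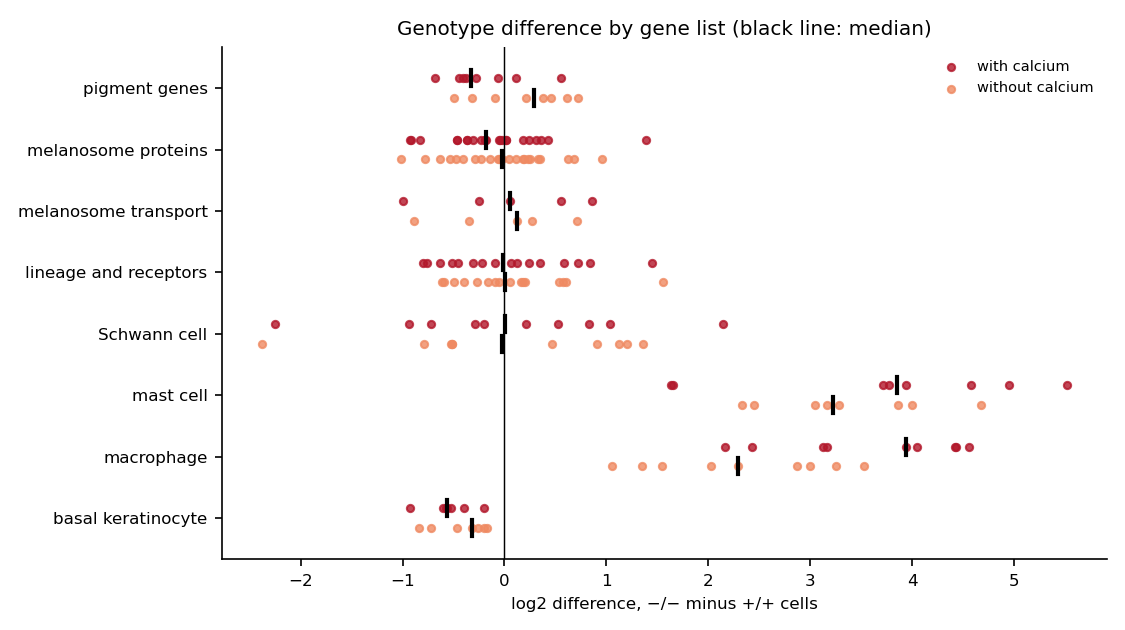
Log2 difference of −/− minus +/+ cells (x axis) for each compared gene of the lists (rows), with calcium above and without calcium below in each row, and list medians as black lines. Pigment genes lay between −0.69 and 0.72, whereas all mast cell and macrophage markers compared were above 1, and scaling to basal keratinocyte genes moved the pigment gene median with calcium from below 0 to above it.

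The mean pattern of the 8 members over the 4 arrays, each gene centred on its own mean level, was −0.22 in −/− cells with calcium, 0.22 in −/− cells without, −0.02 in +/+ cells with calcium and 0.03 in +/+ cells without. Among 14133 genes ranked by the root mean square distance to this pattern, the nearest were Eya2 at 0.0051, Zfp281 at 0.019, and Igsf11, Pitpnm2 and Cct6b at 0.031 to 0.032 log2. With 4 arrays many genes lie close to any pattern, and 74 other genes were nearer than Dct, the nearest member at 0.077. Members themselves ranged up to 0.54 for Gpr143, and Mitf (0.43) and Tyrp1 (0.38) also stood far from the mean pattern.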

How the data were processed

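RNA of 4 pooled samples was labelled with Cy3, 200 ng each, per the labels. The deposited scanner signals are an intensity from the authors' Agilent Feature Extraction 11.5.1.1, background-subtracted and detrended within each array, per the file headers and the submitters' processing notes. The series value table is a ratio, which the authors made by dividing each signal by its array's 75th percentile. Over 44397 spots the relative departure from that quotient was 2.3e-07 at most, and the table's medians were 0.0645 and 0.0612 for −/− cells with and without calcium, against 0.0623 and 0.0660 for +/+ cells.

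Outlier spots (105 to 116 of 43020 per array) were dropped, log2 was taken of the deposited intensity and each array's 75th percentile (non-control spots) was subtracted. Repeat spots were averaged, and the median SD over repeat spots was 0.055 to 0.059 log2. The brightest probe stood for each gene. Where 1 side was not well above background, the difference was taken against the higher of its own signal and the lowest signal well above background there, and such a fold is a bound. Genes were counted at 2-fold. With 1 array a group, no statistical test was made. All arrays were on 1 slide with the same scan time, per the file headers. Probe positions are those of mm9 in the files, and promoters are those of RefSeq on GRCm38.p6.

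The genes named were the 8 members, genes of 12 further lists and the 5 genes nearest to the members' mean pattern. Not every gene of these lists is reported here. Members and lists were chosen with earlier results of these data known. Alternatives were normexp background correction (offset 50), quantile scaling, each array scaled to its median probe above background, averaging all probes of a gene, the authors' table of values, a stricter and no filter on dim probes, and a 3-fold threshold. After the data were seen, scaling to 7 basal keratinocyte genes was added, by their median and by their mean level. The 2-fold calls were tested on simulated gene levels. The steps before them, the bounds and the difference of responses were not tested in this way. Software was Python 3.11.15 with numpy 2.4.6 and pandas 2.3.3, and R 4.3.3 with limma 3.58.1.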

Additional observations from a re-analysis of the deposited data

Results flagged for a closer look

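Among 66 genes of the members and melanocyte lists compared, 9 differences in 7 genes had opposite signs in the 2 settings of the other factor. Each was beyond the scanner's error, Dct without calcium only just (0.208 against 0.204). The share of all genes with such opposite signs was not counted, so no excess in these lists is claimed. With 1 array per group the difference between settings was not tested, and each setting rests on 1 pair of arrays. Between −/− and +/+ cells, Dct differed by −0.40 log2 with calcium and 0.21 without, Mlana by −0.28 and 0.37, Pmel by −0.37 and 0.63, and Edn1 by −1.31 and 0.88. Hgf, a growth factor for melanocytes with signals near background, differed by 0.42 with calcium and −1.13 without. Between cells with and without calcium, Pmel differed by −0.61 in −/− cells and 0.39 in +/+ cells, Oca2 by −0.46 and 0.26, and Tfeb, a transcription factor related to Mitf, by −0.24 and 0.25. Hgf differed by 1.13 in −/− cells and −0.42 in +/+ cells. Under scaling to basal keratinocyte genes, Dct and Mlana were higher in −/− cells in both conditions. On the median level of those genes, Dct was higher by 0.16 with calcium and 0.47 without, and Mlana by 0.29 and 0.63. This scaling shifts every gene of a comparison alike, so signs of the other flagged genes may also turn. Their values under it are not reported here.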

How the results depend on the processing

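No paired analysis was possible because each group is 1 array, and for the same reason no array could be left out. Under the alternatives other than basal keratinocyte scaling the members' medians moved by less than the scanner's error, and the counts past 2-fold were the same, while a 3-fold threshold left 0 members in the −/− calcium response in place of 1. The exceptions came from scaling to 7 basal keratinocyte genes, added after the data were seen. It was run first on their median level and then on their mean level, and both are given because they differ. The member median between genotypes became 0.55 (median level) or 0.72 (mean level) without calcium and 0.23 or 0.21 with calcium. In the calcium response it became 0.27 or 0.18 in −/− cells and 0.40 or 0.50 in +/+ cells. For the difference of responses it became −0.13 on the median level, beside −0.32 on the mean level and −0.44 in the main setting. Members at least 2-fold different were 2 on the mean level without calcium, 1 on either with calcium and 0 on either in the −/− response. Of single member values, 284 of 360 moved by less than the scanner's error. Part of this count was fixed in advance. The filters on dim probes could not change a member, since every member was well above background on every array. The authors' table holds nearly the same quotient as the main setting. Scaling and the filter on dim probes also shifted the balance of all genes past 2-fold, in both directions. Without calcium, 51.8% of those between genotypes were higher in −/− cells, against 74.4% with quantile scaling, 77.7% with normexp, 79.2% or 89.0% with basal scaling and 30.9% with no filter on dim probes. With calcium that share was 68.2%, against 94.8% or 94.2% with basal scaling. Higher shares in the −/− response were 83.2%, against 73.2% with quantile scaling and 99.4% or 98.9% with basal scaling, and in the +/+ response 70.9%, against 84.1% with normexp, 91.8% or 94.7% with basal scaling and 44.7% with no filter. For the difference of responses it was 75.2%, against 50.4% with quantile scaling, 63.2% with normexp and 94.2% with basal scaling on the median level. The cause of these shifts was not tested. Signals such as those of Gpr143, Tpcn2, Hgf and the dimmer Tyr probe were near background, where scanner error is larger.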
